A study of Mus musculus with 5 samples.

Results

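The earliest kidney miRNA measurement after ischemia-reperfusion injury (IRI) was compared with that of sham-operated kidneys. The comparison used 2 of the 5 arrays of the series, the Sham array and the IRI_6h array, and took in all 1247 miRNAs on them. The IRI_6h array held kidney RNA from healthy male C57B/6 mice of 20 to 25 g, in which both kidneys underwent 30 min of warm ischemia followed by 6 h of reperfusion. The Sham array held kidney RNA from mice of the same strain and sex that had the operation but no vascular clamp. How long after the operation the sham kidneys were taken is not given. The labels name no genetic change or drug in either group. The labels name 8 mice per time point, and neither they nor the methods say whether RNA of several mice was pooled for an array. Each group had 1 array, so no spread between animals was measured, no test between groups was made, and every error below is that of the scanner software for the spots of 1 array. Signals are in scanner units, background-subtracted and not normalized between arrays.

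MiRNAs are short RNAs cut from hairpin precursors, and 1 or both arms of a hairpin are loaded into Argonaute proteins. The loaded miRNA pairs with messenger RNAs mainly through its seed, which is bases 2 to 8 from the 5′ end, and lowers their stability or translation. Kidney tubules are rich in the miR-30, miR-200, miR-192, miR-194, miR-10 and let-7 families. MiR-21, miR-34a and miR-210 are known from injured, p53-active and oxygen-poor tissue respectively. In whole kidney, fewer cells of a type and less RNA per cell cannot be told apart.

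The miRNAs on which the comparison turned are given below with their mature sequences from RefSeq (GRCm38.p6), written 5′ to 3′ with the seed in capitals. Names matched a RefSeq mature sequence for 1017 of the 1247 miRNAs, for 207 of the 258 detected on either array and for 169 of the 209 detected on both. Those on both arrays without a match included miR-1940, miR-3960, miR-5109, miR-6243, miR-709 and miR-5097, so no sequence is given for them. Of the 2539 probes compared, 2533 were complementary to a stretch of the matched sequence. The first set holds miRNAs with higher signal at 6 h that are known from injury, blood cells or stress.
miR-21a-5p: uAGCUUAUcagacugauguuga
miR-34a-5p: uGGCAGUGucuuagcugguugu
miR-223-3p: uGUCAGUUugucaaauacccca
miR-451a: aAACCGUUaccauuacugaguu
miR-494-3p: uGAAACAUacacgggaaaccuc
miR-125a-3p: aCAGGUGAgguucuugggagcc
The second set, mostly rich in G, had high ratios or large signal gains.
miR-2861: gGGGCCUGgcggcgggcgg
miR-6538: cGCGGGCUccggggcggcg
miR-5126: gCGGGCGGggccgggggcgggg
miR-188-5p: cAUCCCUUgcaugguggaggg
miR-1224-5p: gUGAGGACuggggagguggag
miR-483-5p: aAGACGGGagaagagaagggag
The third set was higher at 6 h and shares the letters GAGAUGGCU or runs of alternating A and C or G and U.
miR-3473a: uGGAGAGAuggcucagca
miR-3473b: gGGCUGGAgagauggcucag
miR-5128: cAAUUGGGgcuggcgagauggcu
miR-466q: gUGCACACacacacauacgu
miR-467f: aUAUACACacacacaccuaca
miR-1187: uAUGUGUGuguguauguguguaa
miR-574-5p: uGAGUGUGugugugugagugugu
The fourth set had lower signal at 6 h, and its members miR-5100 and miR-3968 share the letters CGAAUCCC.
miR-6366: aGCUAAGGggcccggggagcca
miR-760-3p: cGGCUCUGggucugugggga
miR-3099-3p: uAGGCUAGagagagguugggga
miR-341-3p: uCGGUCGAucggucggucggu
miR-5100: uCGAAUCCcagcggugccucu
miR-3968: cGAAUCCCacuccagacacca
miR-721: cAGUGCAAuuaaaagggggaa
miR-652-5p: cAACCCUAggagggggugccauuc
The let-7 miRNAs, which carry an identical seed and differ in a few later bases, are shown because their ratios were not alike.
let-7a-5p: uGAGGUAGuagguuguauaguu
let-7e-5p: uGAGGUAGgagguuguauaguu
let-7f-5p: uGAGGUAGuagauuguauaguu
let-7i-5p: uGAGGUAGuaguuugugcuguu

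Mature miR-21a-5p lies at chr11:86584120-86584141 on the minus strand, within the span of Vmp1. The miR-451a sequence lies at chr11:78073186-78073207 on the plus strand, where RefSeq lists no gene span other than miRNA genes. Mature miR-483-5p lies at chr7:142654968-142654989 on the minus strand within Igf2, and miR-1224-5p at chr16:20604452-20604472 on the plus strand within Vwa5b2. The positions of miR-188-5p (chrX:7248031-7248051, minus strand, within Clcn5) and miR-125a-3p (chr17:17830855-17830876, plus strand, within Spaca6) place both in clusters described below. MiR-6366, the brightest miRNA on both arrays, lies at chr16:18165093-18165114 on the minus strand outside any listed gene. The annotation used here gives gene spans, so exons and introns were not told apart.

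The Sham and IRI_6h arrays were on the same slide and in the same scan, had an equal effective feature size of 0.6 and held no saturated spot among 52044. The median coefficient of variation among replicate spots was 6.69% on the sham array and 7.03% at 6 h. The 4 spike-in controls had a mean log2 ratio of 6 h over sham of 0.07, and the 9 positive controls above background ranged from −0.04 to 0.23. None of the 9 lay further from 0 than 2 scanner errors. The listed miRNAs that mark other organs gave no signal: all 6 of skeletal and cardiac muscle and all 8 of liver, pancreas, brain and adrenal gland were undetected on both arrays, whereas 7 of 9 miRNAs of kidney tubules were detected on both. This holds for the arms listed, since miR-202-5p was listed and undetected but miR-202-3p had 47.0 on the sham array and 64.9 at 6 h.

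Total miRNA signal was higher at 6 h, and more miRNAs passed the detection rule. A miRNA was called detected when at least 1 of its probes exceeded 3 times its own scanner error, and its signal was the sum over those probes. The summed signal was 65163 ± 1685 on the sham array and 77215 ± 1507 at 6 h, a log2 ratio of 0.24 ± 0.05. The sham array detected 219 miRNAs and the 6 h array 248, with 209 detected on both, 39 gained and 10 lost. That order turned round when every miRNA with a summed probe signal above 0.1 was counted, whatever its error, with 425 on sham and 403 at 6 h. Among the 209, the log2 ratio of 6 h over sham was above 0 for 157 and below 0 for 52, with a median of 0.18 or 1.13-fold. All ratios below are given relative to that median unless they are called unscaled. With spike-in, 75th percentile or quantile scaling and in the processed table, ratios and counts were taken from 0 and not centred again. The direction of the total and of the median depended on the scaling, as the median was −0.11 with each array divided by its 75th percentile and −0.28 after quantile normalization.

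Most miRNAs lay close together and a minority lay far above. Of the 209, 109 (52.2%) were within 0.25 log2 units of the median, and the range from the 5th to the 95th percentile was −0.89 to 1.90. The upper tail was the longer. At least 1.5-fold higher than the median were 50 miRNAs (23.9%), and at least 1.5-fold lower were 19 (9.09%). At least 2-fold higher were 37 (17.7%) and at least 2-fold lower were 7 (3.35%). The distance from the median exceeded 2 scanner errors for 50 of the 50 higher and 15 of the 19 lower miRNAs. Quantile normalization of the 2 arrays gave 35 higher and 59 lower, and the authors' processed table gave 35 and 56. Those counts were taken from 0 and not from the median ratio, which was −0.28 in each. They are therefore not like the counts above, and whether the excess of higher miRNAs turned round relative to the median was not counted. Just inside the upper limit were miR-690 (0.59) and miR-34a-5p (0.62), and just outside it were miR-3096b-3p (0.53) and miR-139-5p (0.51). Just inside the lower limit were miR-1198-5p (−0.59) and let-7e-5p (−0.60), and just outside it were miR-212-3p (−0.58) and miR-365-3p (−0.57).

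**Figure D1:**
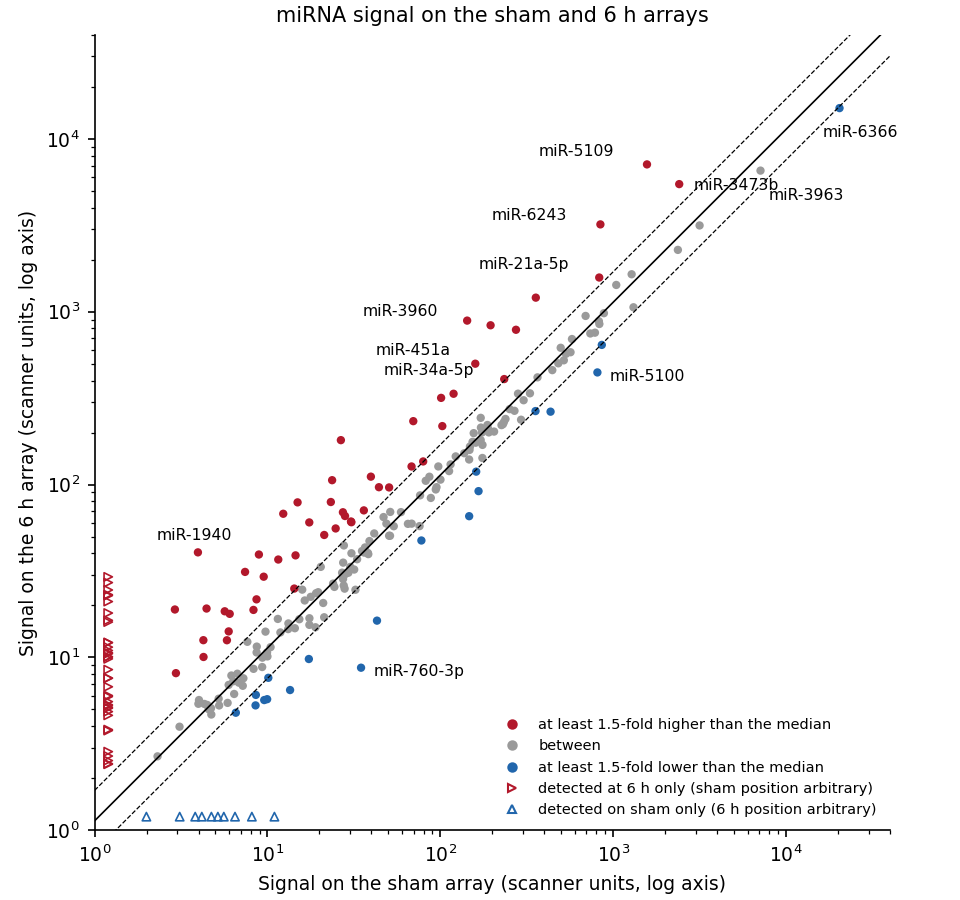
Signal of each miRNA on the sham array (horizontal, scanner units, log axis) against the 6 h array (vertical, scanner units, log axis), with the median ratio as a solid line and 1.5-fold from it as dashed lines. The 50 higher miRNAs (red dots) lie above the upper dashed line from the lowest to high signal levels, and miR-6366, at the top right, lies just below the lower dashed line.

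Probes of the same miRNA gave like ratios. They read the same short RNA on the same arrays, so their agreement is not independent evidence. Among 144 miRNAs with at least 2 probes detected on both arrays, the median range of probe log2 ratios within a miRNA was 0.06 and the 95th percentile was 0.39. Of the 69 miRNAs past 1.5-fold, 48 had at least 2 shared probes, and in all 48 the probes lay on the same side of the median. The widest ranges were those of miR-2137, whose probes gave 0.55 and 1.62, and of miR-5105, whose probes gave 0.94 and 1.96. MiR-188-5p ranged from 1.90 to 2.63 over 4 probes and miR-125a-3p from 1.24 to 2.03 over 4 probes.

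The miRNAs with known roles in injury and inflammation that were detected differed among themselves. MiR-21a-5p, an abundant miRNA known from kidney injury, had a signal of 831 ± 73.1 on the sham array and 1577 ± 138 at 6 h. This was 1.67-fold above the median (log2 0.74 ± 0.18). After quantile normalization its log2 ratio was 0.56, under 1.5-fold when counted from 0, while the median of all ratios was −0.28. Its passenger strand miR-21a-3p was detected only at 6 h, with a signal of 12.2 against a level of 1.81 at which a sham probe would have been called. MiR-34a-5p, a target of p53, had 234 ± 21.0 on the sham array and 408 ± 36.5 at 6 h, 1.53-fold above the median (log2 0.62 ± 0.18). Counted from 0 and not from the median, its ratio was under 1.5-fold with 75th percentile scaling (0.51) and quantile normalization (0.47). The median of all ratios was −0.11 and −0.28 there. Of the 6 miR-34 family members on the array only miR-34a-5p and miR-34b-5p were detected, and miR-34b-5p stayed close to the median (−0.11 ± 0.44). MiR-210-3p, which hypoxia-inducible factor induces, had 28.0 ± 2.84 on the sham array and 25.0 ± 2.93 at 6 h, below the median by less than 2 scanner errors (−0.34 ± 0.22). MiR-494-3p, from the imprinted Dlk1-Dio3 region, went from 101.1 ± 8.03 to 317 ± 24.2, or 2.77-fold above the median (log2 1.47 ± 0.16).

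Markers of blood and immune cells gave a mixed picture. MiR-451a, which marks red blood cells and is cut by Argonaute 2 in place of Dicer, had 159 ± 11.9 on the sham array and 500.3 ± 37.0 at 6 h, 2.77-fold above the median (log2 1.47 ± 0.15). It was the only detected one of 3 red blood cell miRNAs, since miR-144-3p and miR-144-5p were undetected on both arrays. MiR-223-3p, the main miRNA of neutrophils and other myeloid cells, had 24.8 ± 2.73 on the sham array and 55.7 ± 5.34 at 6 h, 1.98-fold above the median (log2 0.99 ± 0.21), though with normexp background correction it was at 0.49, under the limit. Normexp adds an offset of 50 to every spot, which draws the ratios of weak miRNAs toward 0 by construction. The other leukocyte miRNAs did not accompany miR-223-3p. Those detected on both arrays were miR-342-3p (0.04 ± 0.17), miR-155-5p (0.12 ± 0.35) and miR-146a-5p (−0.10 ± 0.34), and miR-142-3p was detected on the sham array only, at 4.74, close to the 4.47 needed at 6 h. In all, 1 of the 4 leukocyte miRNAs on both arrays was at least 1.5-fold higher, beside 23.9% of all miRNAs, and the summed signal of the 9 on the array was 107.1 on the sham array and 145.9 at 6 h. The mice were perfused with saline before the kidneys were taken, and the part of residual blood in the miR-451a signal was not tested.

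An endothelial marker and most stromal markers lay near the median. MiR-126-3p, the endothelial miRNA encoded within Egfl7, had 827 ± 60.4 on the sham array and 881 ± 64.4 at 6 h (−0.09 ± 0.15). MiR-126-5p, the other arm of its hairpin, was detected on the sham array only, at 3.82, below the 4.44 needed at 6 h. Among 6 stromal and smooth muscle miRNAs on both arrays, 5 lay between −0.19 and 0.15, including miR-143-3p and miR-214-3p. MiR-145a-5p had 4.27 on the sham array and 10.1 at 6 h (1.06 ± 0.50; 0.43 after quantile normalization and 0.07 with normexp), although miR-143-3p from the same precursor transcript was at 0.15 ± 0.17.

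The abundant miRNAs of kidney epithelium had ratios in a narrow range. All 7 detected tubule miRNAs lay between −0.16 and −0.02 relative to the median, which corresponds to an unscaled median of 0.04. MiR-192-5p, the leading tubule miRNA, had 738 ± 61.5 on the sham array and 748 ± 62.7 at 6 h (−0.16 ± 0.17), and miR-194-5p, from the same cluster, had 148 ± 12.2 and 166 ± 13.7 (−0.02 ± 0.17). MiR-10a-5p and miR-10b-5p, which lie in the Hox clusters, were at −0.14 and −0.15. None of the 7 was past 1.5-fold in either direction, beside 23.9% and 9.09% of all miRNAs. Counted from 0, 1 was lower under quantile normalization and in the processed table. Of the 8 miR-30 miRNAs listed, 5 were above and 2 below the median, with a list median of 0.05 that was below 0 (−0.07 and −0.03) under 75th percentile and quantile scaling. MiR-30c-5p (0.27 ± 0.17) and miR-30b-5p (0.20 ± 0.18) were the highest of them. The arms miR-30c-1-3p (1.28 ± 0.38) and miR-30b-3p (−0.24 ± 0.34) were on both arrays but not on this list. The miR-200 family, which represses Zeb1 and Zeb2 and holds epithelial identity, had a list median of −0.12, which was 0.06 unscaled. Its only member past 1.5-fold was miR-200a-5p, the minor arm, with 8.57 on the sham array and 6.07 at 6 h (−0.68 ± 0.35). That ratio compares 2 detected sham probes with 1 at 6 h, and on the shared probe alone miR-200a-5p was at −0.10.

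Other broad families also lay near the median. The medians relative to all miRNAs were 0.05 for the miR-29 family, −0.20 for the miR-99, miR-100 and miR-125 families, 0.13 for the miR-23, miR-27 and miR-24 clusters, −0.18 for miR-15 and miR-16 with miR-103 and miR-107, 0.02 for miR-17 to miR-92 and its paralogous clusters, −0.02 for miR-26 with miR-101, −0.12 for miR-130 with miR-148 and miR-152, and −0.21 for miR-181. None of the 42 values in these lists was past 1.5-fold, beside 23.9% of all miRNAs higher and 9.09% lower. This holds for the arms listed, since miR-125a-3p was not on the miR-125 list and was at 1.49 ± 0.19. Counted from 0, 2 miRNAs each of the miR-17, miR-130 with miR-148 and miR-181 lists were at least 1.5-fold lower under quantile normalization. The authors' processed table, also from 0, had 3, 2 and 3 of them and 1 of the miR-29 family lower. With quantile normalization the median of the miR-130 with miR-148 list was −0.63 and that of miR-181 was −0.61. The lowest of the 42 was miR-181a-5p (−0.50 ± 0.25) and the highest miR-27a-3p (0.32 ± 0.17). MiR-181a-5p had 2 detected probes on the sham array and 1 at 6 h, and on the shared probe alone it was at −0.13. Of the 6 miRNAs assayed by qRT-PCR in the study, miR-18a-5p (0.02 ± 0.45), miR-214-3p (0.07 ± 0.28) and miR-210-3p were on both arrays, miR-134-5p was gained, and miR-34b-3p and miR-182-5p were undetected. MiR-183-5p, from the miR-182 cluster, was at 0.16 ± 0.44. Of the 29 listed miRNAs of the Dlk1-Dio3 region, miR-494-3p and miR-341-3p were on both arrays and lay on opposite sides of the median, while miR-134-5p and miR-370-3p were gained.

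The let-7 family split by member. Its 9 detected members had a median of −0.23 (−0.05 unscaled), 8 of 9 lay below the median, and 2 were at least 1.5-fold lower, beside 9.09% of all miRNAs. Let-7f-5p had 860 ± 76.9 on the sham array and 643 ± 57.6 at 6 h (−0.60 ± 0.18), let-7e-5p had 355 ± 30.8 and 266 ± 23.3 (−0.60 ± 0.18), and let-7a-5p had 1311 ± 108 and 1061 ± 87.9 (−0.49 ± 0.17). At the other end let-7i-5p had 578 ± 48.9 and 695 ± 59.0 (0.09 ± 0.17). The brightest member, let-7b-5p, had 3162 ± 261 and 3155 ± 263 (−0.18 ± 0.17). Counted from 0, the 2 calls were lost with unscaled ratios, where no member was past 1.5-fold, and became 5 calls under quantile normalization. Let-7 probes read sequences that differ in few bases, and cross-hybridization between members was not tested.

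**Figure D2:**
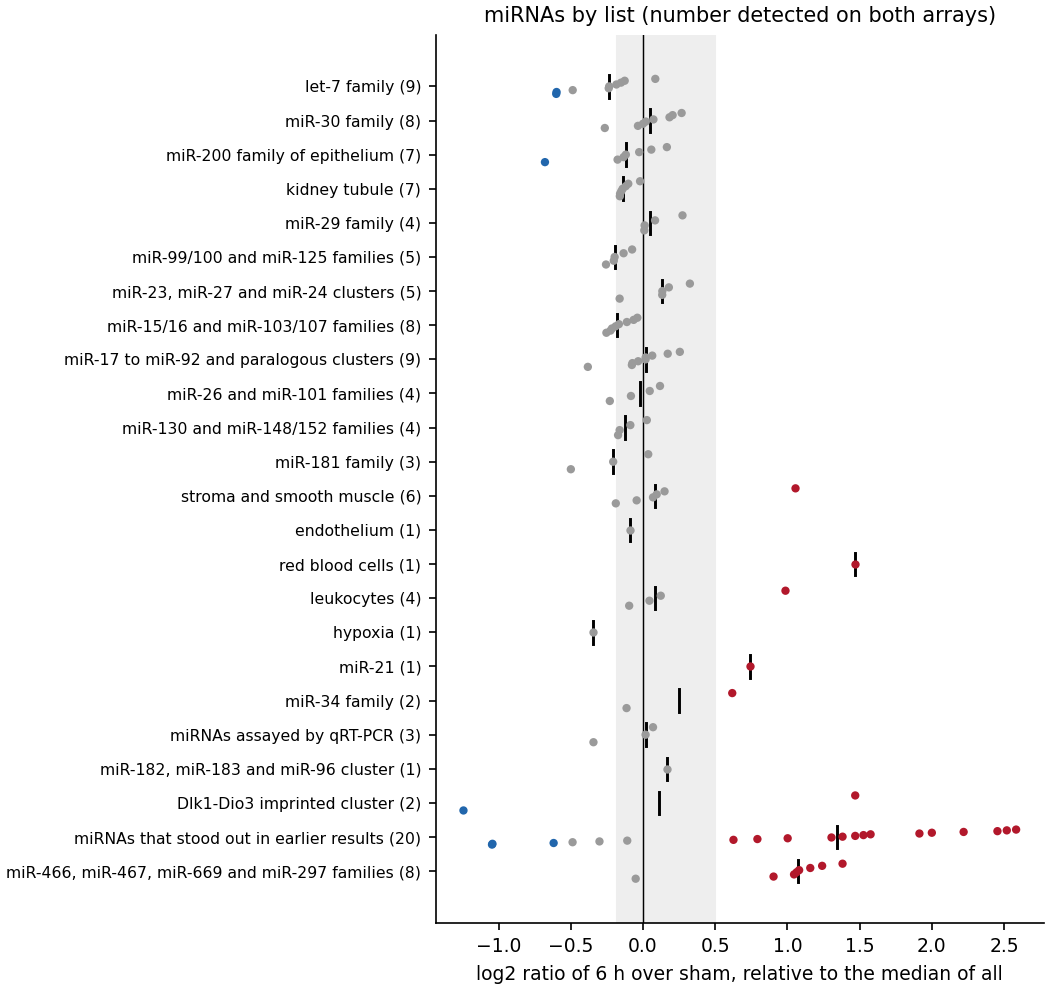
Log2 ratio of 6 h over sham, relative to the median of 209 miRNAs, for the detected members of each list (dots), with the list median as a black bar and the interquartile range of all 209 in grey. Red and blue dots are at least 1.5-fold higher or lower. The kidney epithelial families sit near 0, while 7 of the 8 miRNAs of the miR-466, miR-467, miR-669 and miR-297 families are red.

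The 10 highest ratios lay between 1.93 and 3.17. MiR-1940 went from 3.96 ± 1.27 to 40.5 ± 3.68 (3.17 ± 0.48), but with the scanner software's own deposited signal per miRNA it was lower at 6 h (−2.12), as was miR-483-5p (−0.93). MiR-2861, known from bone-forming cells, went from 26.6 ± 2.55 to 181 ± 13, or 5.99-fold above the median (2.58 ± 0.17). MiR-3960 went from 143 ± 10.3 to 888 ± 62.9 (2.45 ± 0.15). MiR-1940, miR-483-5p and miR-3107-5p had a single detected probe on the sham array and 2, 4 and 2 at 6 h, and with the shared probe alone they were at 2.58, 1.14 and 1.43. MiR-483-5p, encoded within the growth factor gene Igf2, went from 2.92 ± 0.671 to 18.9 ± 1.79 (2.52 ± 0.36). MiR-188-5p went from 14.9 ± 1.43 to 78.9 ± 4.22 (2.22 ± 0.16). The remaining miRNAs of the 10 highest were miR-6538 (2.28), miR-5109 (2.0), miR-6360 (1.98), miR-6385 (1.96) and miR-3107-5p (1.93), each over 2 scanner errors above the median. Normexp background correction with its offset of 50 gave lower ratios, with 1.71 for miR-1940, 1.67 for miR-2861, 1.08 for miR-188-5p, 0.99 for miR-6538, 1.14 for miR-6360, 0.64 for miR-6385 and 1.24 for miR-3107-5p. The offset draws the ratios of weak miRNAs toward 0 by construction, and the bright miR-5109 was at 2.04 with it.

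High ratios were not limited to miRNAs near the detection limit. MiR-5109 went from 1569 ± 120 to 7114 ± 540, miR-6243 from 844 ± 67.4 to 3199 ± 256, and miR-5126, a miRNA made of G and C alone, from 357 ± 25.4 to 1206 ± 85.4. These were 4.0-, 3.34- and 2.98-fold above the median. MiR-1224-5p, within Vwa5b2, went from 195 ± 16.3 to 835 ± 72.1, 3.77-fold above it. With a sham signal of at least 20 required, 29 miRNAs were at least 1.5-fold higher and 9 at least 1.5-fold lower. The median sham signal of the 50 higher miRNAs was 25.7 and that of the 19 lower ones 43.0.

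**Figure D3:**
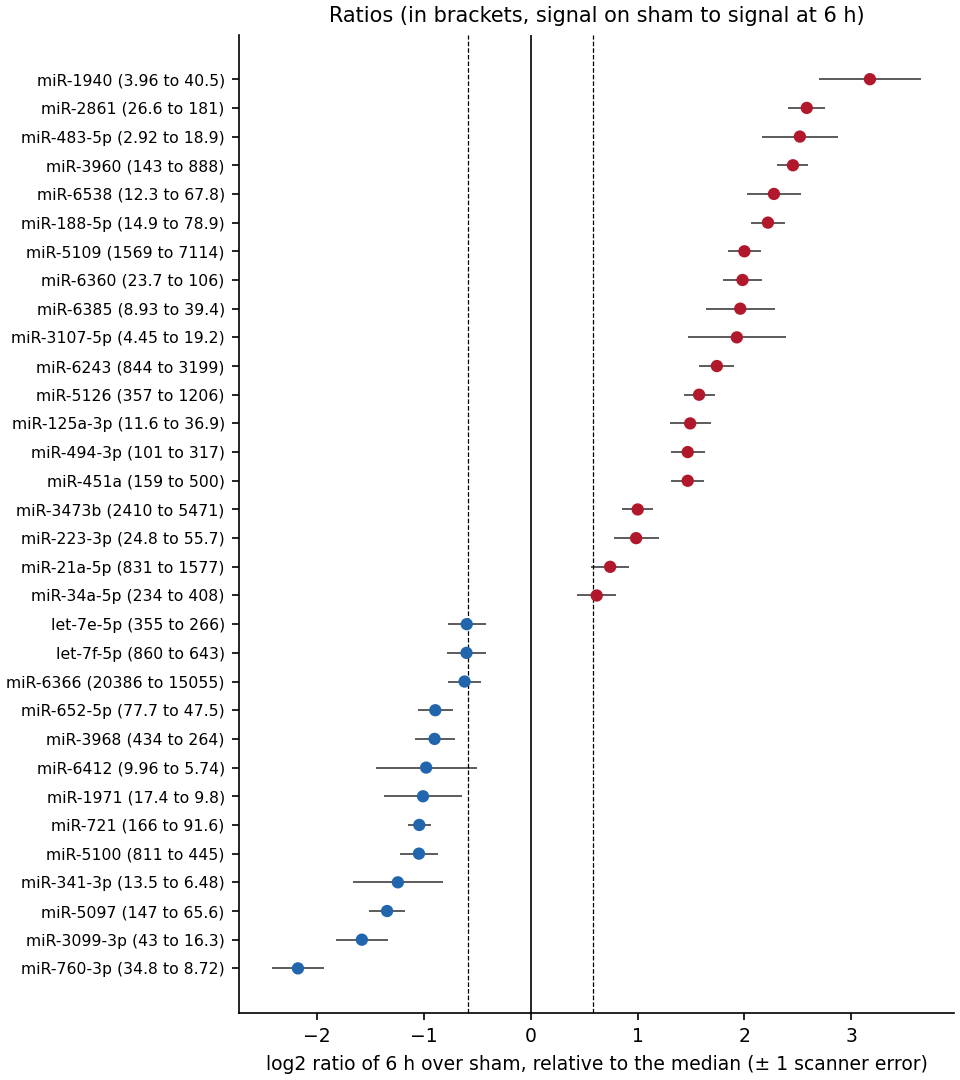
Log2 ratio of 6 h over sham relative to the median, with bars of 1 scanner error, for the 10 highest and the 10 lowest ratios past 2 errors and for 12 further miRNAs named in the text. Dashed lines mark 1.5-fold, and the highest point, miR-1940, has a wide bar.

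Ratios were more widely spread among miRNAs rich in G and C. Among 169 miRNAs with a RefSeq sequence, 7 of the 12 with at least 70% G and C were at least 1.5-fold higher (58.3%) and 2 were lower, with a median of 0.76. Of the 62 with 40 to 50% G and C, 4 were higher (6.45%) and 4 lower, with a median of −0.09 and an interquartile range from −0.19 to 0.12. The Spearman correlation of ratio and G and C content across these 169 miRNAs was 0.14, as a description of points from 1 pair of arrays. Of the 23 miRNAs below 40% G and C, 5 were higher, among them miR-451a and members of the repeat-like families. G and C content alone did not sort the higher from the lower miRNAs, and miR-760-3p, the lowest of all, holds 70%. MiRNAs with a miRBase number of 1000 or above, which were named later, held 28 of the 50 higher and 10 of the 19 lower miRNAs while making up 55 of the 209. Their median was 0.63, against −0.04 for the 154 with lower numbers.

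Shared letters marked several groups of higher and lower miRNAs. These letters were chosen after the values were seen, so the counts describe these arrays. GAGAUGGCU, a stretch also found in mouse short interspersed repeats, occurs in 0.393% of the 1017 sequences. Each of the 3 miRNAs with it on both arrays was at least 1.5-fold higher. MiR-3473b had 2410 ± 172 on the sham array and 5471 ± 390 at 6 h (1.00 ± 0.15, but 0 after quantile normalization, which gave its rank an equal value on both arrays), miR-3473a had 44.2 ± 4.36 and 96.6 ± 9.0 (0.95 ± 0.20), and miR-5128 had 7.42 ± 1.42 and 31.3 ± 3.46 (1.89 ± 0.32). MiR-3473e, the remaining sequence with these letters, was gained. The letters ACACACAC occur in miR-466i-3p, miR-466q and miR-467f on both arrays, with ratios from 1.05 to 1.24. The letters GUGUGUGU occur in miR-1187, miR-3082-5p and miR-574-5p, with ratios from 0.83 to 1.38. All 6 of these were past 1.5-fold, beside 23.9% of all miRNAs. With normexp miR-466i-3p (0.34), miR-467f (0.57) and miR-574-5p (0.47) were under the limit. Counted from 0, miR-466i-3p (0.50) and miR-574-5p (0.48) were also under 1.5-fold after quantile normalization. With the deposited signal per miRNA miR-466q (−1.80) and miR-1187 (−4.45) were lower at 6 h, and on its shared probe alone miR-1187 was at 0.69. GGCGG occurs in miR-2137, miR-2861, miR-5126 and miR-6538, with ratios from 1.30 to 2.58, and in the gained miR-149-3p and miR-3077-5p. CGAAUCCC, letters that also occur in the T arm of transfer RNAs, is present only in miR-5100 and miR-3968, and both were lower. Of the 57 miRNAs with GGG, 18 were higher and 6 lower, against 15 and 10 of the 112 without it. GGG occurs in 26.7% and ACACACAC and GUGUGUGU in 0.393% and 0.688% of all 1017 sequences, and GGCGG and CGAAUCCC in 0.885% and 0.197%.

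The miR-466, miR-467, miR-669 and miR-297 families come mostly from an intron of Sfmbt2 and related repeat copies. Of 61 on the array, 8 were detected on both arrays and 7 of these were at least 1.5-fold higher, beside 23.9% of all miRNAs, with a median of 1.07 beside 0 for all 209 by construction. With normexp miR-669p-3p (0.52) was also under the limit, like miR-466i-3p and miR-467f, and quantile normalization, counted from 0, left 6 higher and 1 lower. The range of the 7 was 0.90 to 1.38, from miR-466i-5p (103 on the sham array and 218 at 6 h) to miR-466f-3p (4.26 and 12.6). MiR-669n, at 4.58 and 5.01, was the exception (−0.05 ± 0.60). RefSeq placed miR-466i-3p, miR-466q, miR-467f and miR-669n within Cdk13, Tnik, Fxr2 and Slc30a7 respectively, and not within Sfmbt2. A further list of 23 miRNAs that stood out in earlier results of these data had 14 of 20 higher and 3 lower, with a median of 1.34. Since that list was drawn from the same arrays, its count is no independent evidence of direction.

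Lower miRNAs were fewer. MiR-760-3p had 34.8 ± 2.18 on the sham array and 8.72 ± 1.37 at 6 h (−2.18 ± 0.24). MiR-3099-3p had 43.0 ± 3.53 and 16.3 ± 2.39 (−1.58 ± 0.24), and miR-5097 had 147 ± 11.6 and 65.6 ± 5.51 (−1.34 ± 0.17). These 3 were lower by more than 5 scanner errors. MiR-5100 had 811 ± 70.6 and 445 ± 38.7 (−1.05 ± 0.18), and miR-3968, with the shared letters, had 434 ± 39.9 and 264 ± 24.2 (−0.90 ± 0.19). MiR-721, with 166 ± 8.42 and 91.6 ± 4.84 (−1.04 ± 0.11), has the seed AGUGCAA of miR-130a-3p and miR-301a-3p, which were at −0.17 and −0.16. These 3 miRNAs of a shared seed did not have alike ratios. The others of the 10 lowest were miR-341-3p (−1.24), miR-1971 (−1.01), miR-6412 (−0.98) and miR-652-5p, beside miR-3968.

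Ratios within most shared seeds were close, but not within all. The 169 miRNAs held 24 seeds with at least 2 members, 66 miRNAs in all. Within a seed the median range was 0.19, and 17 of the 24 seeds had a range of at most 0.5. No such range was computed for miRNAs without a shared seed, and 52.2% of all 209 lay within 0.25 log2 units of the median. The widest range, 1.31, was that of UGGGAGA, shared by miR-30c-1-3p (1.28 ± 0.38) and miR-30c-2-3p (−0.03 ± 0.28). The seed GUAAACA of miR-30a-5p, miR-30c-5p and miR-30e-5p ranged from 0.07 to 0.27, and AGCACCA of the miR-29 family from 0.01 to 0.27. The main miR-30 arms miR-30b-5p (0.20) and miR-30d-5p (0.02) had no matched sequence and were not counted.

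Arms of the same hairpin, which are made in equal number before strand selection, differed in a few cases. Both arms were measured on both arrays for 15 hairpins, and in 3 the arms differed by more than 2 scanner errors of the difference. MiR-125a-3p had 11.6 ± 1.35 on the sham array and 36.9 ± 2.40 at 6 h (1.49 ± 0.19), while miR-125a-5p, the main arm, had 88.2 ± 8.05 and 83.7 ± 7.78 (−0.26 ± 0.19), a difference of 1.75 ± 0.27. With normexp these arms were at 0.52 and −0.16. MiR-30c-1-3p, with 2.96 ± 0.671 and 8.11 ± 1.1, was above miR-30c-5p (0.27 ± 0.17) by 1.01 ± 0.42, though miR-30c-5p also comes from the miR-30c-2 gene. With normexp they were at 0.48 and 0.33. MiR-652-5p had 77.7 ± 5.88 and 47.5 ± 4.0 (−0.89 ± 0.16), while miR-652-3p had 51.2 ± 4.97 and 50.6 ± 5.27 (−0.20 ± 0.21), a difference of 0.69 ± 0.26. The other 12 hairpins had arms within 2 errors of each other, with miR-200a at a difference of 0.74 ± 0.38. On its shared probe alone, however, miR-200a-5p was at −0.10.

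**Figure D4:**
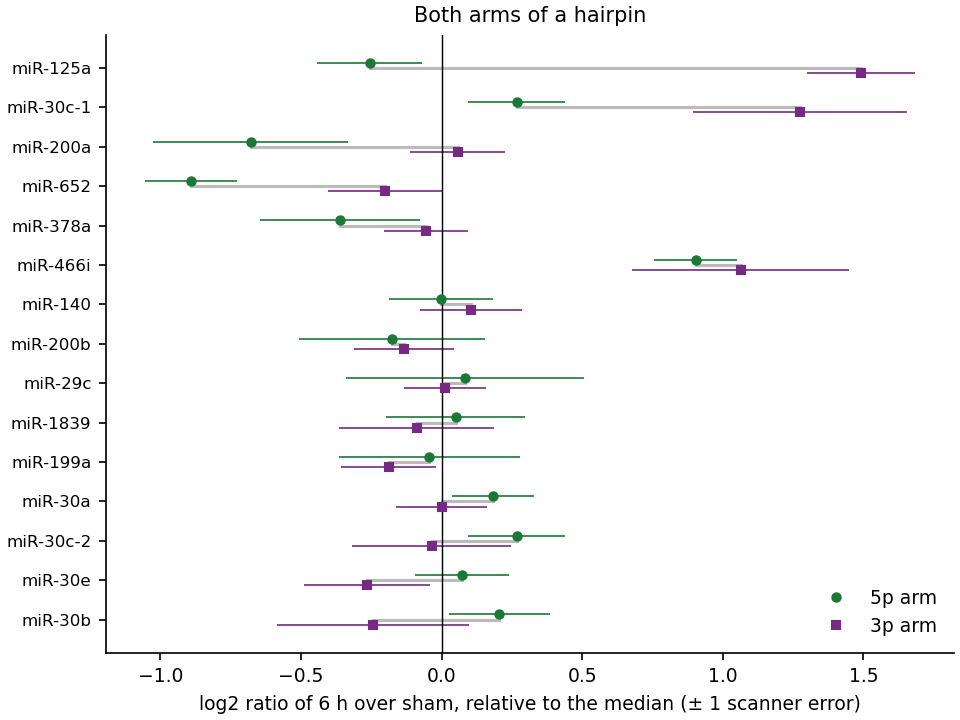
Log2 ratio of 6 h over sham relative to the median for the 5p arm (circles) and the 3p arm (squares) of 15 hairpins, with bars of 1 scanner error. The arms of miR-125a are 1.75 apart, and those of 12 hairpins differ by no more than 2 errors.

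Neighbouring hairpins gave like ratios in most clusters. RefSeq placed detected miRNAs in 25 clusters of at least 2 hairpins on the same strand with starts no more than 10000 base pairs apart, and 20 of these had a range of at most 0.5. MiR-143-3p (0.15) and miR-145a-5p (1.06), which share a precursor transcript, are not among these clusters. Some miRNAs with 2 loci, such as miR-181a-5p, were counted in 2 clusters. Any 2 of the 109 miRNAs within 0.25 log2 units of the median also lie within 0.5 of each other. MiRNAs outside clusters were not compared in this way, so the count has no baseline. MiR-221-3p and miR-222-3p, which neighbour each other on chromosome X, were at 0.19 and 0.25. In the miR-17 cluster on chromosome 14, miR-17-3p, miR-18a-5p, miR-20a-5p, miR-19b-3p and miR-92a-3p lay between −0.08 and 0.06. The widest range, 2.47, was in the Clcn5 cluster. There miR-188-5p was at 2.22 ± 0.16, but miR-500-3p was at 0.01 ± 0.21 and miR-362-3p at −0.25 ± 0.44. In the Spaca6 cluster miR-99b-5p (−0.08), let-7e-5p (−0.60) and miR-125a-5p (−0.26) accompanied the high miR-125a-3p.

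The sum over miRNAs rested on few of them. Signal differences of 6 h minus sham added to 19721 over miRNAs with more signal and to −7670 over miRNAs with less. MiR-5109 (5545), miR-3473b (3061) and miR-6243 (2356) made 55.6% of all increases, and the 10 largest made 77.1%. Neither miR-5109 nor miR-6243 matched a RefSeq mature sequence by name. MiR-21a-5p was in the same group with 746, and miR-29a-3p (386) and miR-30a-5p (368) were also among the 10. MiR-6366 alone made 69.5% of all decreases, with 20386 ± 1507 on the sham array and 15055 ± 1114 at 6 h. It held 31.3% of the sham signal and 19.5% of the 6 h signal. Next came miR-3963, with 7118 ± 556 and 6549 ± 512. Without miR-6366 and miR-3963 the totals were 37659 and 55611, a log2 ratio of 0.56 in place of 0.24. The 50 higher miRNAs held 12.5% of the sham signal and 32.5% of the 6 h signal. Of the 10 brightest miRNAs, 8 were shared by the arrays, and miR-6243 and miR-21a-5p took the places of let-7a-5p and miR-22-3p at 6 h.

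**Figure D5:**
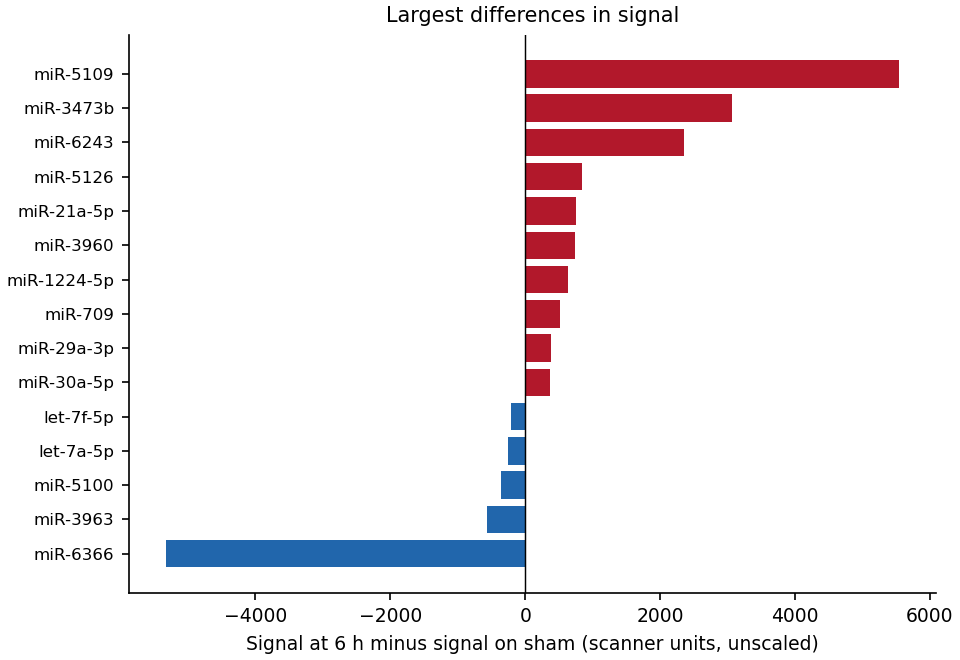
Signal at 6 h minus signal on sham, in unscaled scanner units, for the 10 miRNAs with the largest increase (red) and the 5 with the largest decrease (blue). MiR-5109 (5545) and miR-6366 (−5331) outweigh all others shown.

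Gained miRNAs were weak. The 39 gained at 6 h had signals from 2.41 to 29.3 with a median of 8.51, and added to 406, or 0.525% of the 6 h total. In 18 the signal was at least 10, and in 25 it rested on 1 probe. The signal of 26 was more than 2 times the level at which their most sensitive sham probe would have been called. The 5 brightest were miR-3077-5p (29.3 ± 3.18), miR-6392-3p (27.1 ± 2.88), miR-680 (24.6 ± 1.93), miR-3102-5p.2-5p (23.1 ± 2.66) and miR-370-3p (22.8 ± 2.66), with needed sham levels between 1.82 and 3.69. MiR-132-3p, known as a target of the transcription factor CREB, was gained at 10.6 ± 1.82. The 10 lost miRNAs had sham signals from 1.99 to 11.0 and made 0.0832% of the sham total. They were led by miR-1306-3p (11.0 ± 1.88), miR-1196-5p (8.13 ± 1.80), miR-455-3p (6.49 ± 1.37), miR-503-5p (5.60 ± 1.34) and miR-504-3p (5.17 ± 1.32). Only miR-1306-3p exceeded 2 times the level needed at 6 h, and for 3 the sham signal was below that level, so their loss was within the detection limits of the arrays.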

How the data were processed

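Kidney RNA had been labelled with Cy3 and hybridized to 1-colour Agilent mouse miRNA arrays. The labelling kit that the labels name is one for mRNA, and which labelling gave these signals could not be settled. The authors deposited the scanner intensity output of Agilent Feature Extraction 10.7.1.1, in which spots are background-subtracted and detrended and arrays are not normalized against each other. A second table that the authors deposited holds processed log2 values, whose scale and centring are not given in the sources used here, and it served as an alternative only. Groups came from the sample labels, and the arrays of the other time points were not analysed here. No value from the qRT-PCR, histology or creatinine measurements was used.

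For each miRNA the total probe signals of its own probes above 3 times their scanner error were summed, with errors added in squares. Log2 ratios were formed for miRNAs detected on both arrays and centred on their median. A miRNA was counted past 1.5-fold from that median, and a miRNA undetected on either array got no fold. With 1 array per group no test was possible, and precision is limited by the number of arrays. The step was tested on simulated data with 216 miRNAs detected on both arrays, and 29 of 29 raised and 30 of 30 lowered miRNAs were recovered and 2 of 157 unchanged miRNAs were called. Both simulated arrays were drawn from the sham array, with changes far past 1.5-fold and noise well below the scanner error. Recovery was therefore nearly fixed in advance, and the 2 calls give no rate of false calls for the real arrays.

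The miRNAs named were the 10 highest and 10 lowest ratios past 2 scanner errors, the 10 brightest on each array, the 10 largest signal differences, the 5 brightest gained and lost, and the detected members of 26 lists. Others were named for shared letters, seeds, arms or clusters after their values were seen. The members and lists were chosen with earlier results of these data known. Letters were searched in the mature sequence on its own strand. Alternatives were 4 scalings, normexp background correction, the deposited gene signal, shared probes, other detection rules and the processed table. The software was R 4.3.3 with limma 3.58.1, and Python 3.11.15 with pandas 2.3.3, numpy 2.4.6 and matplotlib 3.10.9.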

Additional observations from a re-analysis of the deposited data

How the results depend on the processing

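No paired analysis was possible because there was 1 array for each group, and no replicate could be left out. The total, a log2 ratio of 0.24, was 0.064 after centring on the median, 0.18 with spike-in scaling, −0.049 with 75th percentile scaling, 0.60 with the deposited gene signal, 0.055 in the processed table and, added after seeing the data, 0.56 without miR-6366 and miR-3963. The median of 0.18 was −0.11 with 75th percentile scaling, −0.28 after quantile normalization and −0.28 in the processed table. Without a detection filter, detections numbered 425 on sham, 403 at 6 h and 365 on both arrays, so that fewer were counted at 6 h than on sham, with 38 gained, 60 lost, 82 higher and 59 lower. The 19 lower miRNAs became 12 with spike-in scaling, 59 after quantile normalization, 11 with normexp, 8 with detection at 5 times the error and 56 in the processed table. The spike-in, quantile and processed counts were taken from 0 and not from the median of those ratios. Chosen after seeing the data, unscaled ratios gave 12 lower, and a sham signal of at least 20 gave 29 higher and 9 lower. The deposited gene signal turned the sign of miR-1187 (−4.45), miR-1940 (−2.12), miR-341-3p (1.41), miR-466q (−1.80), miR-483-5p (−0.93), miR-5115 (−6.63) and miR-6412 (0.41). Of the 69 miRNAs past 1.5-fold, 69 stayed on their side of the median with normexp and 56 with the deposited gene signal, but only 44 and 53 were still past 1.5-fold. After quantile normalization, counted from 0, 67 stayed on their side and 53 were still past 1.5-fold. MiR-3473b and miR-6366 were at exactly 0 there and did not cross to the other side. Scaling cannot alter which miRNAs are detected, so it has no values for those counts. The cause was not tested for these shifts. Signals near the detection level, 1.99 on sham and 2.41 at 6 h, set what could be seen.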
